A study of Mus musculus with 6 samples.

Results

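Ifit1, Ifit2, Ifit3, Mx1, Mx2, Rsad2 and Cmpk2 are 7 interferon-induced antiviral genes, and they were taken by symbol from the 23107 genes of the deposited count table. RNA had been sequenced from CD11b+ Gr-1+ myeloid cells sorted out of mouse gliomas, 3 libraries from tumours with wild type IDH1 (wtIDH1) and 3 from tumours with mutant IDH1 (mIDH1). All tumours came from mice of the C57BL/6 background, and leukocytes were enriched on Percoll before the sort. CD11b is an integrin chain of myeloid cells, and Gr-1 is an epitope of Ly6G and Ly6C, so that the gate can take neutrophils and monocytes. IDH1 is the cytosolic isocitrate dehydrogenase, and the series title ties its mutant form in glioma stem cells to G-CSF and to immunosuppression by myeloid cells. The labels do not say how the tumours were made, whether the replicates came from separate mice or whether mice were pooled. Errors and p-values thus describe how far these libraries scatter, part of which may be technical. The 7 genes were chosen because they stood out in the mIDH1 against wtIDH1 contrast, so their differences are given here as a description with no test.

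Type I interferons bind the receptor chains IFNAR1 and IFNAR2, whose kinases JAK1 and TYK2 pass the signal to STAT2. A complex that holds STAT2 and IRF9 binds interferon-stimulated response elements (ISREs) and switches on a large set of genes, among them effectors that act on viral RNA and protein. IFIT proteins are built of tetratricopeptide repeats, and IFIT1 holds RNA whose cap lacks the host's methyl mark. The Mx proteins are dynamin-like GTPases. Viperin, the product of Rsad2, is a radical SAM enzyme that turns CTP into a nucleotide that stops viral polymerases, and Cmpk2 encodes a mitochondrial kinase of pyrimidine nucleotides. In macrophages and monocytes all 7 are textbook targets of type I interferon.

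The genes lie in 3 clusters. Coordinates are those of GENCODE M21 on mm10. Ifit2 (chromosome 19, 34550694 to 34576419), Ifit3 (34583531 to 34588731) and Ifit1 (34640871 to 34650009) span 99315 bases on the plus strand, with the further family members Ifit1bl1, Ifit3b and Ifit1bl2 between Ifit3 and Ifit1. Mx1 (chromosome 16, 97447035 to 97462907, minus strand) and Mx2 (97535308 to 97560900, plus strand) are divergent, with starts 72401 bases apart. Rsad2 (chromosome 12, 26442746 to 26456452, minus strand) and Cmpk2 (26469204 to 26479837, plus strand) are divergent too, with starts 12752 bases apart. In C57BL/6 mice neither Mx gene encodes a working protein. GENCODE accordingly lists Mx2 as a polymorphic pseudogene, while Mx1 is listed as protein-coding there and as a transcribed pseudogene in RefSeq, so the Mx values below are levels of transcripts and not of an antiviral activity.

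The promoter sequences are shown because the mean of all 7 genes was lower in mIDH1 and they are textbook targets of the same factors. RefSeq windows on GRCm38.p6, from 250 bases before to 50 bases after the annotated start, were found for 5 of the 7 genes. They were searched on both strands for the ISRE core GAAANNGAA. The stretches from 180 to 61 bases before the start are printed for the 3 genes with a match, at chr19:34640709-34640828 (plus strand) for Ifit1, chr19:34583349-34583468 (plus strand) for Ifit3 and chr12:26456513-26456632 (minus strand) for Rsad2. Capitals mark the core, which in all 3 genes reads on the strand opposite to the gene.
Ifit1: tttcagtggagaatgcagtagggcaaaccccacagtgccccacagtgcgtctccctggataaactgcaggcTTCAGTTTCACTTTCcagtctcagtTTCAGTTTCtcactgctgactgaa
Ifit3: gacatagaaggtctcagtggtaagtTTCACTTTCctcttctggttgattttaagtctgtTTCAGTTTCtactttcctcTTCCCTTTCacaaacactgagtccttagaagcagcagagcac
Rsad2: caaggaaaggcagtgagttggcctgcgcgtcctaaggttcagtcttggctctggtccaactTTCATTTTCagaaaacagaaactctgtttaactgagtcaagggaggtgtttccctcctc
The Ifit1 window held 3 matches, at 109 to 101, 103 to 95 and 84 to 76 bases before the start, of which the first pair overlap. The Ifit3 window also held 3 matches, at 155 to 147, 121 to 113 and 102 to 94 bases before the start, and Rsad2 had 1 at 119 to 111. Neither the 2 windows of Ifit2 nor the window of Cmpk2 held these letters, which says nothing on sites elsewhere.

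The core was found in 8.56% of all 32851 RefSeq windows and in 8.70% of the 9177 tested genes that have a window. It was found in 14 of 29 other interferon-induced genes with a window. Of these, Adar, Bst2, Ddx60, Ifi44, Ifitm3, Oas1a, Oas1g, Oas3, Samd9l and Trim30a were lower in mIDH1 in the test given below. Ifitm2 was higher, Eif2ak2 and Trim21 did not pass, and Ifi44l had 0 counts in all libraries. Windows with 3 or more matches numbered 21, or 0.0639% of all, and 4 of these belonged to Ifit genes, namely Ifit1, Ifit3, Ifit3b and Ifit1bl2. These 4 are not separate cases. The windows of Ifit1 and Ifit1bl2 share 245 bases around their divergent starts. Those of Ifit3 and Ifit3b matched in 258 of 340 alignment columns (75.9%), with unpaired bases counted as no match. A longer form of the ISRE was found in the windows of Ifit1 and Ifit3 and in 0.819% of all windows. Letter matches are a description of the sequence, and binding was not measured.

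The libraries held 19728204 to 35093267 counts. Levels are CPM (counts scaled to a common library size) scaled by TMM (a scaling that assumes most genes are unchanged), and 3 counts corresponded to 0.0861 to 0.151 CPM. Each of the 7 genes had between 239 and 20506 counts in every library, and all 7 passed the filter on low counts. Counting error is thus small beside the spread between libraries, except for Mx2 in mIDH1, whose levels nearly coincided. A negative log2 fold change means a lower level in mIDH1, and its standard error (SE) comes from edgeR's fit to all 12950 genes that passed. In that fit 1058 genes (8.17%) had an adjusted p below 0.05, of which 698 (5.39% of those tested) were lower and 360 (2.78%) higher in mIDH1. The split depended on the scaling, with 593 lower and 483 higher by library totals alone and 603 lower and 456 higher with upper quartile factors.

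The 7 genes together made up 1474, 2249 and 2634 CPM in wtIDH1 replicates 1, 2 and 3, and 852, 592 and 242 CPM in the mIDH1 replicates. Every mIDH1 library lay below every wtIDH1 library in this sum. In bulk RNA of sorted cells, fewer cells of an expressing type and less RNA per cell cannot be told apart. All 7 log2 fold changes were negative, from -3.03 to -0.74 with a median of -1.99, beside a median of 0.06 over all genes tested. In 6 of 7 cases all mIDH1 libraries lay below all wtIDH1 libraries, which also held for 14.9% of all genes tested. Since the genes were chosen on this contrast, nothing is read from that count.

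**Figure D1:**
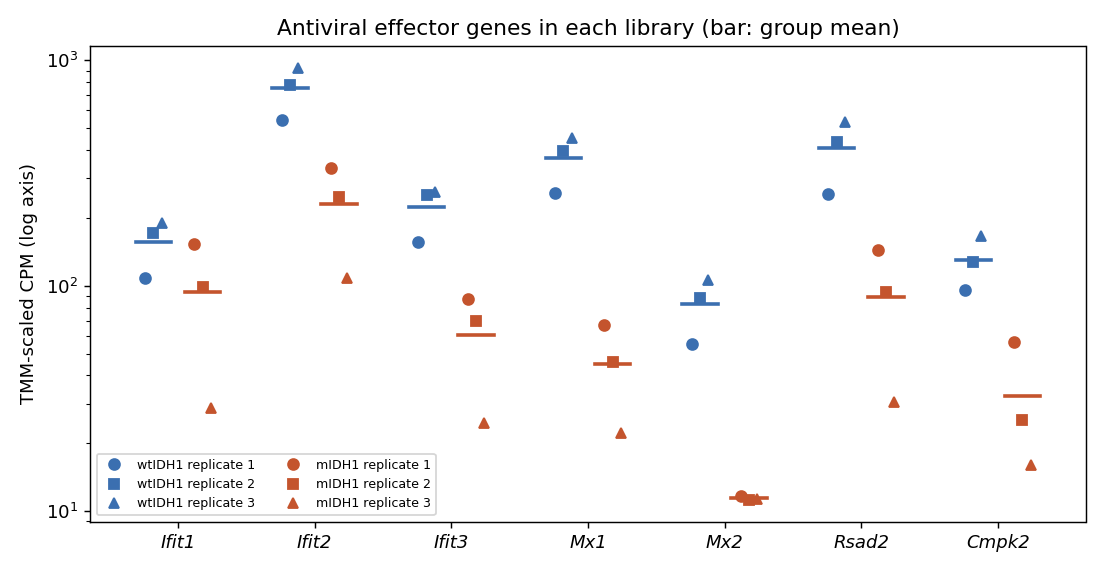
TMM-scaled CPM (log axis) of each of the 7 genes in the 3 wtIDH1 (blue) and 3 mIDH1 (red) libraries, with marker shape for the replicate number and a bar for the group mean. The mIDH1 points lie below all wtIDH1 points for every gene but Ifit1, and the 3 mIDH1 points of Mx2 nearly coincide.

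Of the 3 IFIT genes, Ifit2 and Ifit3 were lower in all mIDH1 libraries than in any wtIDH1 library, and Ifit1 was not. Ifit2 encodes an RNA-binding protein that also binds the translation factor eIF3, and it was the most abundant of the 7, at 544, 777 and 929 CPM in wtIDH1 and 332, 248 and 108 CPM in mIDH1 libraries. Its highest mIDH1 library was thus below its lowest wtIDH1 library. The means were 750 ± 194 CPM for wtIDH1 and 229 ± 113 CPM for mIDH1 (SD, n = 3 each), a log2 fold change of -1.71 ± 0.33 SE.

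Ifit3 was at 157, 253 and 261 CPM in wtIDH1 and 87.2, 69.6 and 24.7 CPM in mIDH1 libraries. The groups did not overlap, with a log2 fold change of -1.88 ± 0.36 SE, close to that of Ifit2. Of the 50-base stretches in its transcripts, 51.2% also occur in transcripts of its neighbour Ifit3b, against 7.13% for Ifit1 with other genes and none for Ifit2. How reads matching several genes were assigned was not given in the labels or notes, so the counts of Ifit3 and Ifit3b are uncertain relative to each other.

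Ifit1, which recognises incompletely methylated caps, stood apart. It was at 108, 171 and 189 CPM in wtIDH1 and 154, 98.6 and 28.7 CPM in mIDH1 libraries. The mIDH1 replicate 1 lay above the lowest wtIDH1 library and near the wtIDH1 mean of 156 ± 42.4 CPM. Its log2 fold change was -0.74 ± 0.43 SE, and it was -0.31 without mIDH1 replicate 3 and -1.30 without mIDH1 replicate 1. Its level in mIDH1 differed 5.36-fold between the highest and lowest library, the widest spread of the 7 genes.

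The 3 other Ifit genes of the locus were not among the 7, and none passed edgeR's test, although 2 had an unadjusted p below 0.05 and 1 passed as lower in DESeq2 and in limma voom. Ifit3b (named I830012O16Rik in the table) was at 23.4, 40.4 and 48.5 CPM in wtIDH1 and 13.5, 17.3 and 2.95 CPM in mIDH1, with a log2 fold change of -1.73 ± 0.51 SE (adjusted p = 0.0547). Ifit1bl1 (Gm14446 in the table) was at 76.6, 69.5 and 118 CPM in wtIDH1 and 65.3, 33.3 and 7.46 CPM in mIDH1, with -1.31 ± 0.52 SE (adjusted p = 0.153). Ifit1bl2 (2010002M12Rik), whose start lies 128 bases from that of Ifit1 on the other strand, stayed between 0.71 and 3.04 CPM in all 6 libraries (adjusted p = 0.668). Ifit1bl2 was thus far below its divergent partner Ifit1 in every library. Ifit3b and Ifit1bl1 had their lowest level in mIDH1 replicate 3, as did Ifit1, Ifit2 and Ifit3.

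The Mx transcripts had the largest log2 fold changes of the 7 in size. Mx1, whose protein blocks influenza virus in the nucleus in strains with a working allele, was at 259, 395 and 451 CPM in wtIDH1 and 67.0, 45.8 and 22.2 CPM in mIDH1 libraries. The lowest wtIDH1 library was well above the highest mIDH1 library. The mean in wtIDH1 was 8.17-fold that in mIDH1, and the log2 fold change was -3.03 ± 0.35 SE. Mx2, whose protein acts in the cytoplasm, was at 55.0, 88.0 and 106 CPM in wtIDH1 and 11.7, 11.2 and 11.4 CPM in mIDH1 libraries. Its mIDH1 levels differed by 1.04-fold only, where those of the other 6 genes differed by 3.01-fold to 5.36-fold, and its log2 fold change was -2.86 ± 0.27 SE. The counts of Mx2 behind these levels were 407, 361 and 239 in mIDH1 libraries. Counting error at such counts is larger than the spread of these 3 levels, so nothing is read from their closeness. Mx1 and Mx2 share few of their 50-base stretches (4.37% of Mx1 with other genes, mostly Mx2). Their transcripts matched in 1905 of 3429 alignment columns (55.6%). Unpaired bases count as no match there, and the transcripts differ in length (3385 and 2417 bases), so likeness where they align is higher.

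Rsad2 was at 255, 436 and 534 CPM in wtIDH1 and 144, 93.7 and 30.6 CPM in mIDH1 libraries, a log2 fold change of -2.19 ± 0.43 SE. Cmpk2, its divergent neighbour, was at 95.7, 128 and 165 CPM in wtIDH1 and 56.3, 25.3 and 16.1 CPM in mIDH1 libraries, a log2 fold change of -1.99 ± 0.38 SE. Neither gene's groups overlapped, and for both the order of the 6 libraries was the same. The log2 ratio of Rsad2 to Cmpk2 was 1.62 ± 0.19 in wtIDH1 and 1.39 ± 0.48 in mIDH1 (SD, n = 3 each), a small shift beside the differences in level, 4.56-fold for Rsad2 and 3.98-fold for Cmpk2 between the group means.

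Within the groups, most of the 7 genes had the same order of libraries. In wtIDH1, replicate 3 was the highest and replicate 1 the lowest library for 7 of 7 genes, an order found in 18.1% of all genes tested. In mIDH1, replicate 1 was the highest library for 7 of 7 and replicate 3 the lowest for 6 of 7, with the nearly even Mx2 lowest in replicate 2, and 18.8% of all genes tested had replicate 1 highest and replicate 3 lowest. The median log2 difference between mIDH1 replicates 1 and 3 was 1.81 for the 7 genes, 0.92 for the other interferon-induced genes and 0.00 for all genes. Between wtIDH1 replicates 3 and 1 it was 0.80 for the 7 genes, 0.47 for the other interferon-induced genes and 0.02 for all genes. The median log2 fold change of the 7 genes was -1.67 without mIDH1 replicate 3 and -2.65 without mIDH1 replicate 1.

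**Figure D2:**
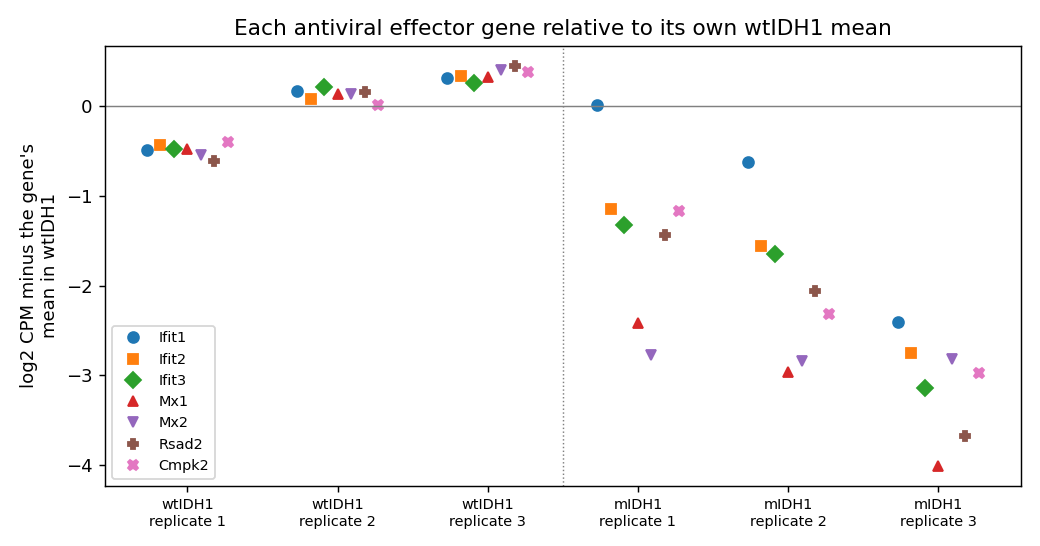
Log2 CPM of each gene minus its own mean over the 3 wtIDH1 libraries, by library, so that 0 is the gene's wtIDH1 mean. The 7 genes lie close together in each wtIDH1 library and fan out in the mIDH1 libraries, with Ifit1 uppermost in all 3 and Mx1 or Mx2 lowest.

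Ratios between the genes were tighter in wtIDH1. Over the 21 pairs, the log2 ratio of the CPM of a pair spanned 0.05 to 0.36 across the 3 wtIDH1 libraries and 0.15 to 2.38 across the 3 mIDH1 libraries, and the mIDH1 span was the wider in 20 of 21 pairs. Without Mx2 the mIDH1 span reached 1.13 and was the wider in 14 of 15 pairs. The exception was Ifit1 to Rsad2, whose log2 ratio spanned 0.26 in wtIDH1 and 0.18 in mIDH1. The pairs share genes, so they are not separate cases. The mIDH1 replicates also had the higher chi-square over degrees of freedom, at 101 to 139 between libraries. It was 48.5 to 76.4 between wtIDH1 libraries. Spans were not computed for pairs of other genes, so whether the wider mIDH1 spans are particular to these genes was not tested. The balance of the genes also differed. The log2 ratio of Ifit1 to Mx1 was -1.25, -1.21 and -1.25 in the wtIDH1 libraries and 1.19, 1.11 and 0.36 in the mIDH1 libraries, so Mx1 exceeded Ifit1 in CPM in all 3 of the former and Ifit1 exceeded Mx1 in all 3 of the latter. The log2 ratio of Ifit2 to Mx1 was 1.07, 0.98 and 1.04 in wtIDH1 and 2.31, 2.43 and 2.28 in mIDH1, a shift that was nearly equal in all 3 mIDH1 libraries although Ifit2 varied 3.06-fold and Mx1 3.01-fold among them.

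To compare levels between genes, CPM was divided by the length of the gene's exons in kilobases. In wtIDH1 Ifit2 was highest at 191 CPM per kb, followed by Ifit3 at 128, Mx1 at 97.3, Rsad2 at 94.2, Ifit1 at 58.8, Cmpk2 at 31.1 and Mx2 at 23.0. Of neighbours in that order, only Ifit1 and Cmpk2 had ranges over the 3 libraries that did not overlap. In mIDH1 the order of the means was Ifit2 at 58.4 CPM per kb, Ifit1 at 35.2, Ifit3 at 34.7, Rsad2 at 20.6, Mx1 at 11.9, Cmpk2 at 7.82 and Mx2 at 3.16, with only Cmpk2 and Mx2 not overlapping. Ifit2 led in both groups and Mx2 came last in both, while the mean of Ifit1 was below those of Ifit3, Mx1 and Rsad2 in wtIDH1 and above them in mIDH1.

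The other genes of interferon signalling were read from the test over all genes. Of 13 such genes, 5 fell (Stat2, Irf7, Tyk2, Isg15 and Usp18) and 8 did not pass in edgeR. None rose, also at an unadjusted p below 0.05 or in DESeq2 and limma voom. The list had a median log2 fold change of -0.60, and 5.39% of all genes tested were called lower. Stat2 was at 288, 391 and 440 CPM in wtIDH1 and 125, 73.7 and 56.6 CPM in mIDH1, and it fell by 2.13 on the log2 scale (± 0.27 SE, adjusted p = 0.00076). Its groups were far apart, and it kept its call under all 15 alternatives.

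Irf9, a partner of Stat2 in the ISRE-binding complex, was at 184 ± 13.8 and 121 ± 26.3 CPM (SD, n = 3 each), with -0.60 ± 0.19 SE (edgeR, adjusted p = 0.0697). Whether Stat2 differed more than Irf9 was not tested. Irf7, the factor that amplifies interferon production and is itself induced by interferon, fell by 1.65 on the log2 scale (± 0.26 SE, edgeR adjusted p = 0.0030), from 1132 ± 144 to 360 ± 152 CPM.

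The receptor chains did not pass the test, with log2 fold changes of -0.54 ± 0.19 SE for Ifnar1 (adjusted p = 0.111) and -0.13 ± 0.16 SE for Ifnar2 (adjusted p = 0.690). The kinase gene Tyk2 fell by 1.02 on the log2 scale (± 0.18 SE, adjusted p = 0.0055), and Jak1 was at 0.22 ± 0.16 SE (adjusted p = 0.459). Usp18, which removes ISG15 from proteins and dampens the receptor, and Isg15, the ubiquitin-like modifier, had log2 fold changes of -1.56 ± 0.38 SE (adjusted p = 0.026) and -1.73 ± 0.37 SE (adjusted p = 0.0149). Leaving out wtIDH1 replicate 2, wtIDH1 replicate 3 or mIDH1 replicate 2 ended the calls of Usp18 and Isg15. The list had 3 lower genes without each of these libraries and 8 without mIDH1 replicate 1.

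Among 37 other interferon-induced genes tested, 24 fell, 1 rose and 12 did not pass, beside 5.39% of all genes tested called lower and 2.78% higher. Their median log2 fold change was -1.12. They were listed with earlier results of these data known, so the count is no independent evidence of their direction. The fallen genes included Oas2, a sensor of double-stranded RNA that activates RNase L, from 202 ± 50.1 to 25.6 ± 2.81 CPM. Its mIDH1 values of 28.7, 24.8 and 23.3 CPM were close together, as were those of Mx2. They also included Oasl1 (log2 fold change -2.49 ± 0.26 SE), the interferon-induced Ifi27l2a (-2.01 ± 0.27 SE) and the ISG15 ligase Herc6 (-1.45 ± 0.25 SE), and these 4 kept their calls under all 15 alternatives. The count of fallen genes was 6 without wtIDH1 replicate 3, 8 without wtIDH1 replicate 2 and 13 without mIDH1 replicate 2. The gene that passed as higher was Ifitm2, at 0.56 ± 0.16 SE (adjusted p = 0.0492), and it lost its call with any 1 library left out.

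**Figure D3:**
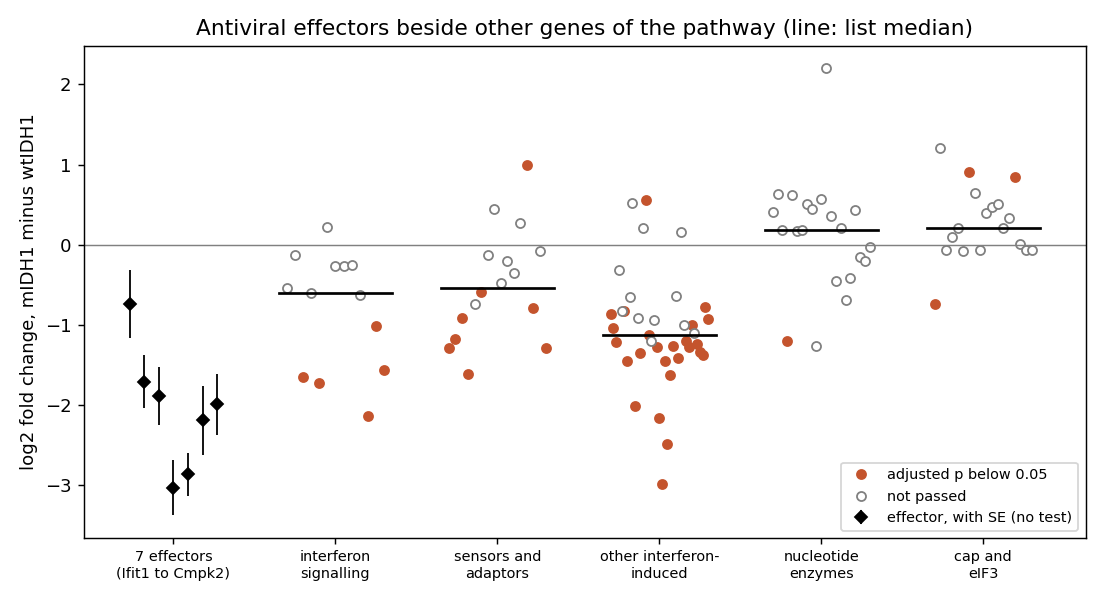
Log2 fold change (mIDH1 minus wtIDH1) of the 7 genes with SE bars (black diamonds, no test) beside the genes of 5 pathway lists, filled where the adjusted p was below 0.05, with a line at each list's median. The medians are -0.60 for interferon signalling, -0.54 for sensors and adaptors, -1.12 for other interferon-induced genes, 0.18 for nucleotide enzymes and 0.21 for cap and eIF3 genes.

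Of 21 interferon ligand genes, 17 had 0 counts in all 6 libraries, 3 passed the filter and none passed in edgeR, DESeq2 or limma voom, with 1 higher at an unadjusted p below 0.05 in edgeR. Without mIDH1 replicate 3, Ifng passed as higher in edgeR. Ifnb1 was at 1.02, 0.0379 and 0.45 CPM in wtIDH1 and 3.70, 0 and 0.62 CPM in mIDH1, which is near the level of 3 counts in several libraries. Ifng was at 28.1 ± 7.58 and 47.3 ± 20.8 CPM, with a log2 fold change of 0.75 ± 0.34 SE (edgeR adjusted p = 0.213). Ifnk was the only tested ligand with a negative log2 fold change, at -1.84 ± 1.15 SE (edgeR adjusted p = 0.389). Its level was 4.91 ± 1.39 CPM in wtIDH1 and 1.36 ± 1.95 CPM in mIDH1 (SD, n = 3 each). The groups of Ifnk did not overlap, and it had 2 counts in mIDH1 replicate 1.

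Sensors and adaptors start the production of interferon on contact with foreign nucleic acid. Of 16 tested, 7 fell and 1 rose, beside 5.39% of all genes tested called lower and 2.78% higher, with a median of -0.54. The 7 were the RNA helicases Ddx58 (RIG-I), Ifih1 (MDA5) and Dhx58 (LGP2), the ligase Trim25, the kinase Ikbke, the DNA receptor Tlr9 and the factor Irf5. Trim25 fell from 557 ± 69.0 to 228 ± 39.9 CPM and Ikbke from 145 ± 32.6 to 47.6 ± 15.8 CPM, and both kept their calls under all 15 alternatives. The RNA receptor gene Tlr7 was higher at 257 ± 75.8 CPM in mIDH1 than at 129 ± 9.13 CPM in wtIDH1 (edgeR adjusted p = 0.0149). Its call was lost without mIDH1 replicate 2 and without each of the 3 wtIDH1 libraries. When any of replicate 2 of either group or wtIDH1 replicate 3 was left out, 2 sensors, Trim25 and Ikbke, passed as lower.

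Over 4 lists of genes that act beside the 7 proteins or resemble them, 4 of 58 tested rose and 2 fell, beside 2.78% and 5.39% of all genes tested, and the others did not pass. Of 18 genes for cap synthesis and eIF3, on which IFIT proteins act, 2 rose (Eif3e at 0.90 ± 0.18 SE and Eif3m at 0.84 ± 0.20 SE) and 1 fell, with a median of 0.21. The gene that fell was Cmtr1, named Ftsjd2 in the table, which adds the methyl group that hides host caps from IFIT1. It was at 192 ± 21.9 and 115 ± 18.0 CPM, with a log2 fold change of -0.74 ± 0.18 SE (edgeR adjusted p = 0.0248). The calls of Cmtr1 and Eif3m did not survive leaving out replicate 2 of either group or wtIDH1 replicate 3, and that of Eif3e was lost without wtIDH1 replicate 2 or 3.

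Of 21 genes of nucleotide synthesis and salvage, the setting in which viperin and Cmpk2 work, 1 fell and none rose in edgeR, DESeq2 or limma voom (1 was higher at an unadjusted p below 0.05 in edgeR), with a median of 0.18. A share of 1 in 21 is close to the 5.39% of all genes called lower. Dck, the deoxycytidine kinase, fell by 1.19 on the log2 scale (± 0.21 SE, edgeR adjusted p = 0.0050), from 101 ± 16.2 to 44.0 ± 7.96 CPM, and kept its call under all 15 alternatives. Cmpk1, the cytosolic counterpart of Cmpk2, was at 72.6, 95.6 and 89.8 CPM in wtIDH1 and 127, 103 and 113 CPM in mIDH1, with a log2 fold change of 0.41 ± 0.18 SE (adjusted p = 0.196). Samhd1, which degrades deoxynucleotides, was at -0.69 ± 0.30 SE (adjusted p = 0.196). Of 9 genes for iron-sulphur loading and binding partners of viperin, only Fam96a (Ciao2a) rose, at 0.87 ± 0.22 SE (adjusted p = 0.0297), and its call was lost without any 1 wtIDH1 library or mIDH1 replicate 3. Of 10 dynamin-like genes other than Mx1 and Mx2, only Atl3 rose, at 0.69 ± 0.19 SE (adjusted p = 0.0436), a single call in a list where 8.17% of all genes were called, and leaving out replicate 2 of either group, wtIDH1 replicate 3 or mIDH1 replicate 1 ended its call.

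The genes most like the 7 over all 6 libraries were found by the root mean square difference between a gene's log2 CPM profile, centred on its mean, and the mean centred profile of the 7, among 9048 genes with a mean of at least 5 CPM. The closest were Slc25a22 at 0.18, Stat2 at 0.23, BC006779 and Arhgef37 at 0.25, Oasl2 at 0.26, Agpat9 at 0.27, Mndal at 0.28, and Psd, Nfkbie and Oasl1 at 0.30, beside a median of 1.27 over all candidates. Slc25a22, a mitochondrial glutamate carrier, was at 56.4, 90.5 and 76.2 CPM in wtIDH1 and 27.1, 22.0 and 8.70 CPM in mIDH1 libraries. BC006779 was the most abundant of the 10, at 700, 1029 and 1159 CPM and 400, 274 and 176 CPM. Of these 10, 3 were matched by symbol to the pathway lists above. Among the 7 themselves Ifit3 was closest to the mean profile at 0.15, and Ifit1 at 0.64 and Mx2 at 0.57 were farthest. All 10 genes followed the mean profile more closely than Ifit1, Mx2 and Mx1 (0.47). The likeness includes the difference between groups and is a description.

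The label of the cells was checked against markers. Itgam, the gene of CD11b, had 1892 ± 145 CPM in wtIDH1 libraries and 2071 ± 210 CPM in mIDH1 libraries (n = 3 each), while S100a8, among the most abundant transcripts of neutrophils, was at 4.31 ± 2.53 and 10.3 ± 0.96 CPM. The 13 neutrophil genes summed to 337 to 417 CPM in wtIDH1 and 448 to 510 CPM in mIDH1. Of the 10 tested, 9 had a positive and 1 a negative log2 fold change, with a median of 1.48. Of these, 3 were called higher and 1 lower, beside 2.78% and 5.39% of all genes tested. Lcn2, Mmp8 and Cxcr2 rose (Mmp8 from 30.1 ± 7.35 to 109 ± 46.8 CPM), and Csf3r, the G-CSF receptor gene, fell from 260 ± 12.5 to 148 ± 33.8 CPM (edgeR adjusted p = 0.0214). The call of Csf3r was lost without any 1 wtIDH1 library, and that of Cxcr2 when replicate 2 of either group was left out. Csf3r also made up most of the neutrophil sum in wtIDH1. The 10 macrophage genes summed to 6044 to 6964 CPM in wtIDH1 and to 7883, 8252 and 15830 CPM in mIDH1 replicates 1, 2 and 3. Of the 10, 5 rose (Mrc1, Ms4a7, Cd68, Mertk and C1qb) and none fell, beside 2.78% and 5.39% of all genes tested. Mrc1 rose from 145 ± 56.6 to 843 ± 99.5 CPM and was the only one to keep its call with each library left out in turn. The count of 5 became 2, 1 and 2 without wtIDH1 replicates 1, 2 and 3, and 8, 4 and 3 without mIDH1 replicates 1, 2 and 3. The mIDH1 library with the highest macrophage sum was the one with the lowest sum of the 7 antiviral genes.

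The 8 monocyte genes summed to 5742 to 9777 CPM in wtIDH1 and 5244 to 8131 CPM in mIDH1. Fn1 was the largest part on average, with means of 5232 CPM in wtIDH1 and 3204 CPM in mIDH1. Of the 8, 2 were lower (Ly6c2 at -1.76 ± 0.26 SE and Plac8, the latter not without wtIDH1 replicate 2 or 3). A single gene was higher (F13a1), and the shares over all genes tested were 5.39% lower and 2.78% higher. The median log2 difference between mIDH1 replicates 1 and 3 was 1.87 for the monocyte genes and -0.72 for the macrophage genes, beside 1.81 for the 7 antiviral genes. It was 2.25 for dendritic cell and 1.90 for endothelial genes, so a high value was not particular to the monocyte list. For the remaining marker lists it lay between -0.90 and 0.63. Plasmacytoid dendritic cell genes, which mark strong producers of interferon, summed to 105 to 123 and 83.7 to 115 CPM, and none passed in edgeR, DESeq2 or limma voom, nor at an unadjusted p below 0.05. Sums of dendritic cell (344 to 480 and 408 to 757 CPM), microglia (619 to 918 and 646 to 1262), T and NK cell (151 to 276 and 252 to 434), B cell (2.72 to 4.48 and 5.43 to 12.02), neural and glioma (82.9 to 93.3 and 88.2 to 95.1) and endothelial genes (95.8 to 131 and 62.7 to 100, with Rgs5 at 0 in all libraries) are given for wtIDH1 and mIDH1 in this order. The flat neural and glioma sum is mostly Mbp, a myelin gene, while Sox2 passed as higher, at 0, 0.08 and 0.15 CPM in wtIDH1 and 0.55, 7.29 and 4.18 CPM in mIDH1 (edgeR adjusted p = 0.0368). That call was kept only without mIDH1 replicate 1 among the fits with 1 library left out. The glioma-associated genes Nes (2.91 ± 0.71 and 8.96 ± 0.60 CPM) and Pdgfra (0.22 ± 0.21 and 3.08 ± 2.15 CPM) did not pass in edgeR, and their groups did not overlap. DESeq2 called 3 genes of the neural and glioma list higher, and limma voom called 0. Gfap went the other way, at 2.86 ± 2.48 and 0.67 ± 0.12 CPM, with overlapping groups (edgeR adjusted p = 0.317). Of the 5 tested genes of the list, 3 had positive and 2 negative log2 fold changes. The part of these cell types in the levels of the 7 antiviral genes was not tested.

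**Figure D4:**
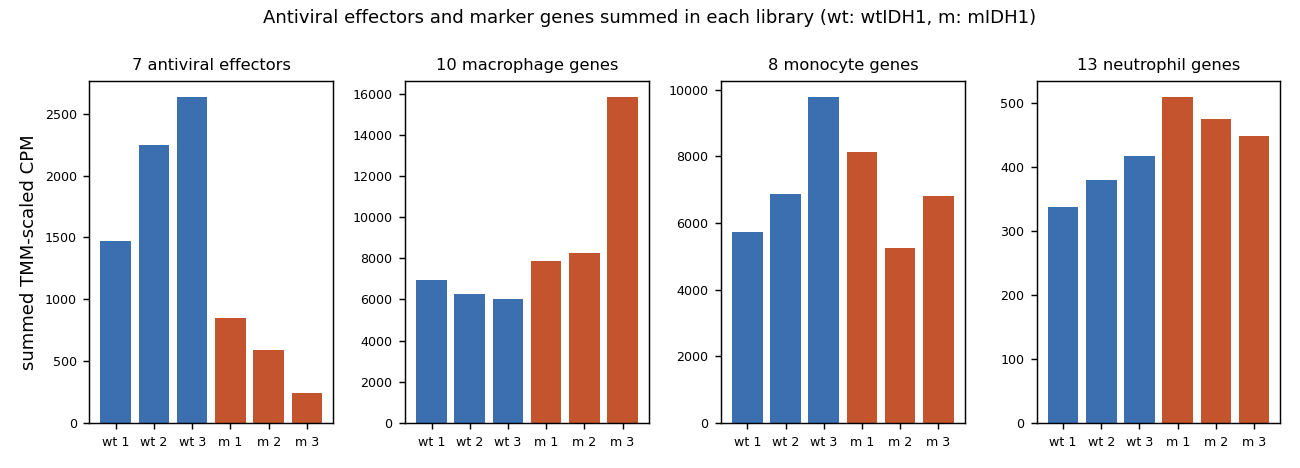
Summed TMM-scaled CPM per library (bars from 0, each panel with its own axis) of the 7 antiviral genes and of macrophage, monocyte and neutrophil marker genes, wtIDH1 in blue and mIDH1 in red. The antiviral sum is lowest in mIDH1 replicate 3 at 242 CPM, where the macrophage sum is highest at 15830 CPM. In wtIDH1, most of the monocyte sum is Fn1 on average and most of the neutrophil sum is Csf3r.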

How the data were processed

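Polyadenylated RNA was made into libraries with a TruSeq mRNA kit, which does not mark strand, per the labels' protocols. Estimated counts by gene, without scaling for depth, were deposited by the authors as 1 table. The submitters' processing notes name the mm10 build, HTSeq, Cuffdiff 2.1.1, Cufflinks, TopHat2 2.0.13, Bowtie2 2.2.1 and FastQC, but neither their order and settings nor the annotation. All values were rounded to whole counts, since up to 1.61% of a library's values had decimals (beyond 1e-09).

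Genes were filtered with edgeR's filterByExpr (minimum count 10, minimum total 15) and scaled by TMM. The groups, taken from the genotype labels, were compared in edgeR 4.0.16 (glmQLFit and glmQLFTest, two-sided, 4 residual degrees of freedom, Benjamini-Hochberg adjustment over all genes tested, threshold 0.05) in R 4.3.3, and the scripts were tested on simulated data. Alternatives were other scalings and filters, robust dispersion, limma voom (limma 3.58.1), DESeq2 1.42.0, a replicate block and leaving out each library. Replicates were not repeats of 1 library (chi-square over degrees of freedom 48.5 to 139). Floors of 3 counts cover counting error only.

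The 7 genes and all lists were chosen with earlier results of these data known. The named genes are the 7, 15 chosen by name whatever their result, up to 4 of each list with the smallest p, the 10 most like the 7 (prior count 2; unnamed gene models left out) and the 5 nearest protein-coding genes on each side of a cluster. The result of 1 of these is not reported here. Others, such as the remaining members of a list that passed, are named where a count needed it. Of 153 genes in 9 pathway lists, 151 were found, 12 under another symbol. Mb21d1 and Helz2 were not found under the symbols tried. They are absent from the list counts, and either may be present under another name. Positions are from GENCODE M21 and promoters from RefSeq.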

Additional observations from a re-analysis of the deposited data

How the results depend on the processing

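The log2 fold change of each of the 7 genes stayed negative and moved by less than the replicate SD under all 15 alternatives (105 values). With single libraries left out, the median of the 7 ranged from -2.65 to -1.67, the number of genes called from 334 to 1033, the lower interferon signalling genes from 3 to 8 and the lower genes among the other interferon-induced ones from 6 to 31. Against 1058 genes called in edgeR, 1698 were called with DESeq2 and 585 with the replicate block, where 16 other interferon-induced genes and 5 signalling genes were lower. Same-numbered libraries did not deviate together (correlations of -0.03, 0.03 and -0.05, against -0.04 to 0.07 for other numbers), so the numbers are not taken to pair the samples. Lower genes were 66.0% of calls, 55.1% by library totals alone and 56.9% with upper quartile factors. Of 240 counts over the other lists, 197 stayed within 1.5 times their value. A prior count of 0.5 and scaling by library totals alone both gave the same 10 most similar genes. The longer ISRE was found in 2 of 5 promoter windows and the core in 3 of 5. Counts over the marker lists with a library left out were added after seeing the data. With 3 libraries a group, no library could be tested as standing apart.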

Other observations

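Of 20 tested genes next to the 3 clusters, 4 passed the test, 2 higher and 2 lower, beside 8.17% of all genes tested. Of the 10 nearest protein-coding neighbours of the Ifit cluster, 9 were tested and none passed in edgeR, DESeq2 or limma voom, nor at an unadjusted p below 0.05, with Lipa, a lysosomal lipase next to Ifit2, at 87.5 ± 14.4 CPM for wtIDH1 and 103 ± 21.3 CPM for mIDH1 (SD, n = 3 each). Of the 11 neighbours of the Mx genes, 6 were tested, 1 rose (Bace2, at 2.54 ± 0.51 CPM in mIDH1 and under the level of 3 counts in wtIDH1) and 2 fell. These were Prdm15, which fell by 1.37 on the log2 scale (± 0.35 SE, edgeR adjusted p = 0.031) from 22.8 ± 4.89 to 8.87 ± 2.06 CPM, and Zbtb21 (Zfp295 in the table), from 88.6 ± 4.72 to 50.2 ± 13.1 CPM (-0.82 ± 0.22 SE, adjusted p = 0.038). Of the 10 neighbours of Rsad2 and Cmpk2, 5 were tested and Id2, an inhibitor of basic helix-loop-helix factors, rose by 0.59 ± 0.16 SE on the log2 scale (adjusted p = 0.043). None of these 4 calls held in every fit with 1 library left out: that of Bace2 was lost in each, that of Prdm15 when replicate 2 of either group, wtIDH1 replicate 3 or mIDH1 replicate 1 was left out, and those of Zbtb21 and Id2 without any of the libraries but mIDH1 replicate 1.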
